A study of Oryza sativa with 12 samples.

Results

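The YABBY genes of rice were followed in young panicles of 4 lines that differ at the panicle length loci Prl5 and Pbl6. The 6 genes were chosen by their locus identifiers: Os07t0160100 (described as OsYAB1), Os02t0643200 (YABBY protein family protein), Os04t0536300 (similar to Yabby15), Os10t0508300 (similar to YABBY 3), Os12t0621100 (similar to a FILAMENTOUS FLOWER-like yabby protein) and Os03t0215200 (similar to DROOPING LEAF). They are 6 of 34126 loci in the table. All 6 had a row, with 9 transcripts between them, and all 9 passed the filter on low counts among 31643 transcripts tested. Each gene is represented by its transcript with the highest mean level, and gene names are those of the deposited descriptions. The name TOB1, which also belongs to the family, was not paired with an identifier there and is not used.

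YABBY proteins are plant-specific transcription factors with a zinc finger and a DNA-binding YABBY domain. In Arabidopsis, FILAMENTOUS FLOWER and its relatives act on the abaxial side of leaves and floral organs and promote lamina growth. In rice, DROOPING LEAF specifies the carpel and the midrib of the leaf, and OsYAB1 has been linked to the feedback control of gibberellin synthesis.

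RNA was sequenced from young panicles at the 2-mm stage, with 3 libraries per line and 12 in all. Koshihikari, the wild-type japonica cultivar, carried neither introgressed segment. The near-isogenic lines had been made by repeated backcrossing of the cultivar ST-1 to Koshihikari and selection with markers. NIL-Prl5ST-1 (hereafter NIL-Prl5) carried the ST-1 segment with Prl5, the gibberellin biosynthesis gene GA20ox4. NIL-Pbl6ST-1 (hereafter NIL-Pbl6) carried the ST-1 segment with Pbl6, which is APO1, an F-box gene. NIL-Prl5ST-1+Pbl6ST-1 (hereafter NIL-Prl5+Pbl6) carried both. Each is a single selected line, so that the effect of the named gene cannot be told apart from that of the rest of its segment or of other ST-1 sequence in the line. By their identifiers the YABBY genes lie on chromosomes 2, 3, 4, 7, 10 and 12, and none lies on chromosome 5 or 6, where Prl5 and Pbl6 are. Plants of all lines were grown in a paddy field.

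Total counts ranged from 16041196 to 31760529 per library. On the first principal component, which held 36.3% of the variance, Koshihikari replicate 2 (28.3, against -6.3 and 3.4) and NIL-Prl5 replicate 2 (22.6, against 59.2 and 61.1) stood apart from their lines. No library was left out of the results, and values without these are given where a result rests on them. The labels do not say whether the libraries of a line came from separate plants, so p-values measure the spread between these samples only. In whole panicles, more cells that express a gene cannot be told apart from more RNA per cell. Levels are in cpm, read counts scaled to the library total after TMM normalization. They are not scaled to transcript length and are not compared between genes.

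OsYAB1 was the member whose level differed most between the lines, and it was higher wherever the Prl5 segment was present. In Koshihikari, Os07t0160100-02 stood at 13.8, 12.7 and 24.3 cpm in replicates 1, 2 and 3 (16.9 ± 6.39, SD, n = 3). In NIL-Prl5 it stood at 66.1, 41.7 and 69.6 cpm (59.1 ± 15.2, SD, n = 3). Every NIL-Prl5 library lay above every Koshihikari library, although replicate 2 was the lowest of its line in both. The level in NIL-Pbl6 was 18.2, 25.9 and 15.9 cpm (20 ± 5.25, SD, n = 3). In NIL-Prl5+Pbl6 it was 37.9, 38.7 and 58.5 cpm (45 ± 11.6, SD, n = 3). The lines with the Prl5 segment thus lay above the lines without it with no overlap, while NIL-Pbl6 overlapped Koshihikari and NIL-Prl5+Pbl6 overlapped NIL-Prl5.

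**Figure D1:**
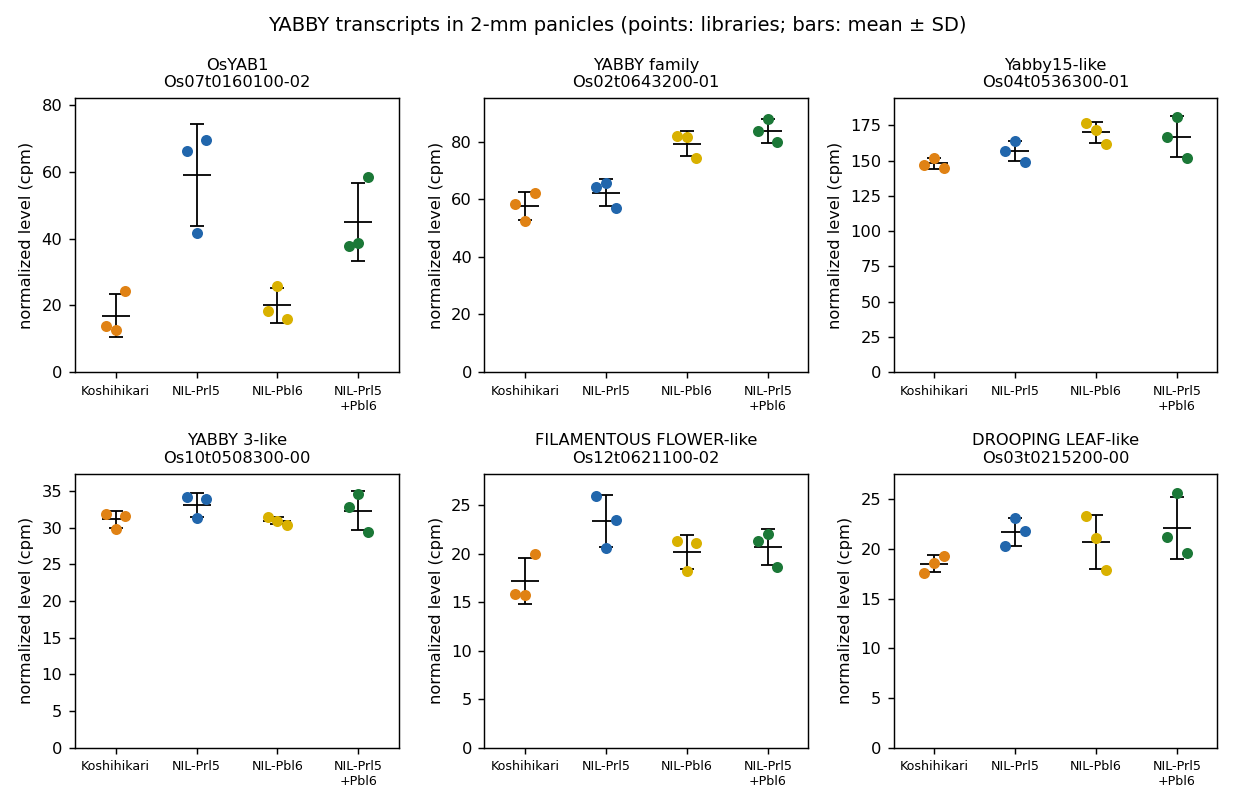
Normalized level (cpm, y axis from 0, a scale of its own in each panel) of the main transcript of each YABBY gene in the 4 lines (x axis). Points are the 3 libraries of a line, and black bars show the mean ± SD; OsYAB1 ranges from 12.7 to 25.9 cpm without the Prl5 segment and from 37.9 to 69.6 cpm with it, and Os02t0643200 from 52.4 to 65.8 cpm without the Pbl6 segment and from 74.3 to 88 cpm with it.

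The comparison of NIL-Prl5 with Koshihikari asked what the Prl5 segment alone does. OsYAB1 rose 3.49-fold (log2 fold change 1.80, SE 0.241, 95% interval 1.28 to 2.33, adjusted p = 0.00639, edgeR quasi-likelihood test with Benjamini-Hochberg adjustment over all transcripts tested). It ranked 26 of 31643 transcripts by the size of the increase. It was the only YABBY gene of the 6 that passed an adjusted p of 0.05, in a comparison where 0.743% of all transcripts passed and 0.382% passed as higher. The exact two-sided permutation test of log2 cpm gave p = 0.1, the smallest that 3 libraries against 3 can give. The call held without each library in turn (log2 fold change 1.64 to 2.15) and without both libraries that stood apart (1.84). Relative to the 6 YABBY transcripts counted together, OsYAB1 took 4.52% to 8.05% of the reads in Koshihikari and 12.1% to 19.6% in NIL-Prl5.

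The Prl5 segment was tested a second time, in libraries that the first test did not use, by comparing NIL-Prl5+Pbl6 with NIL-Pbl6. OsYAB1 rose 2.23-fold (log2 fold change 1.16, SE 0.166, 95% interval 0.81 to 1.51, edgeR adjusted p = 0.0016). Again it was the only one of the 6 to pass, against 0.777% of all transcripts (0.382% as higher). In a fit of all 12 libraries together the same fold change did not pass (adjusted p = 0.0598). The increase with both segments over Koshihikari was 2.64-fold (log2 fold change 1.40, SE 0.229, edgeR adjusted p = 0.00739), in a comparison where 2.16% of transcripts passed and 0.863% passed as higher.

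The Pbl6 segment gave no call for OsYAB1. The log2 fold change of NIL-Pbl6 over Koshihikari was 0.24 (95% interval -0.26 to 0.74, edgeR adjusted p = 0.561). Where the Prl5 segment was present, NIL-Prl5+Pbl6 differed from NIL-Prl5 by -0.39 (95% interval -0.77 to -0.01, edgeR adjusted p = 0.122). That difference did pass without NIL-Prl5 replicate 2 (-0.59, edgeR adjusted p = 0.00441) and without NIL-Prl5+Pbl6 replicate 3 (-0.63, edgeR adjusted p = 0.0321), so its call rests on which libraries are kept. The interaction, which is the Prl5 effect with Pbl6 minus that without it, was -0.63 (95% interval -1.37 to 0.10, edgeR adjusted p = 0.24). An equal Prl5 effect and one smaller by that amount both lie within this interval.

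The locus of OsYAB1 has another 2 transcripts in the annotation. Os07t0160100-03, which the annotation describes as similar to a MADS-box transcription factor, held 88.6% to 95.3% as many counts as the main transcript in each library, and Os07t0160100-01 held 6.77% to 17.3%. How reads matching several transcripts were counted is not given in the sources used here, so these are not independent measurements. In NIL-Prl5 over Koshihikari they rose by 1.80 (Os07t0160100-03, edgeR adjusted p = 0.00705) and 2.00 (Os07t0160100-01, edgeR adjusted p = 0.0267) on the log2 scale. In NIL-Prl5+Pbl6 over NIL-Pbl6 they rose by 1.13 (edgeR adjusted p = 0.00207) and 1.23 (edgeR adjusted p = 0.0177). Of the 10 loci on each side of OsYAB1 by locus number, 18 of the 20 were tested. In the comparisons of the Prl5 segment 0 passed by edgeR, where 0.743% and 0.777% of all transcripts did, so that 0 of 18 is near these shares. Their log2 fold changes ran from -0.69 to 0.41 in NIL-Prl5 over Koshihikari and from -0.56 to 0.31 in NIL-Prl5+Pbl6 over NIL-Pbl6, all below those of OsYAB1. In NIL-Prl5+Pbl6 over NIL-Prl5 5 of the 18 passed, where 25.3% of all transcripts did, and 3 passed for the interaction, where 3.93% did.

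**Figure D2:**
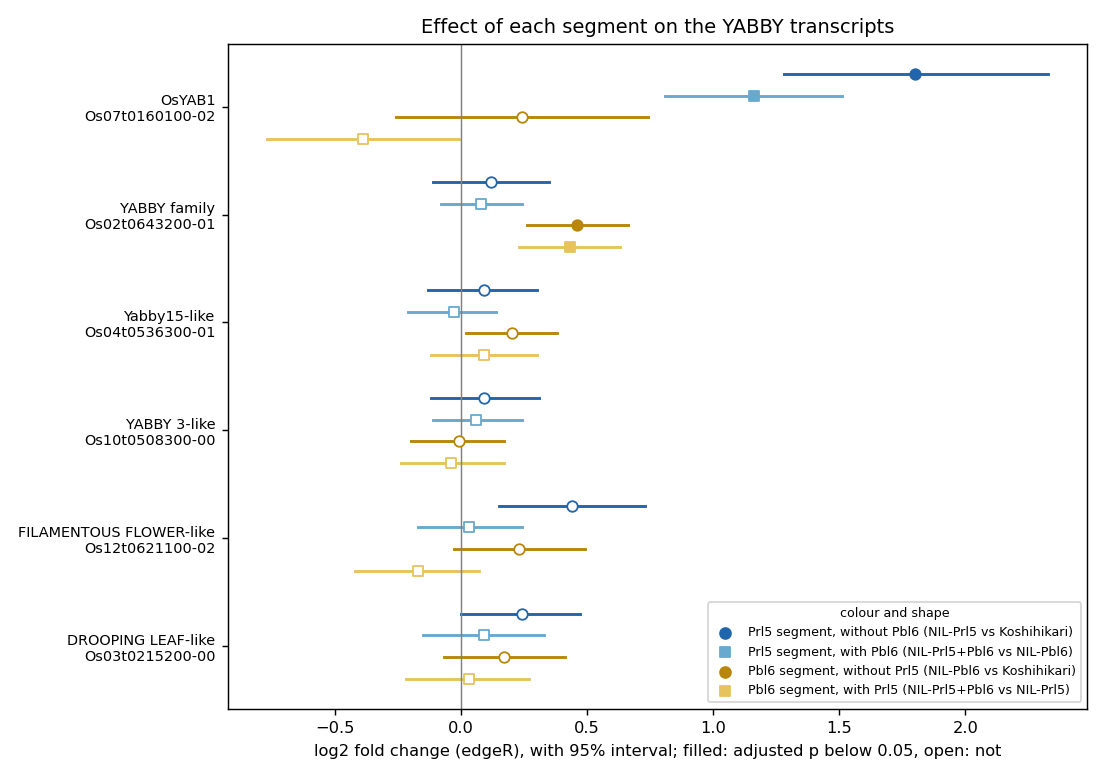
Log2 fold change (x axis, edgeR) of each YABBY transcript (y axis) for the Prl5 segment without Pbl6 and with Pbl6, and for the Pbl6 segment without Prl5 and with Prl5, with 95% intervals as lines. Filled symbols have an adjusted p below 0.05: OsYAB1 for the Prl5 segment (1.80 and 1.16) and Os02t0643200 for the Pbl6 segment (0.46 and 0.43).

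Os02t0643200, described only as a YABBY protein family protein, was higher with the Pbl6 segment. Os02t0643200-01 stood at 58.3, 52.4 and 62.1 cpm in Koshihikari (57.6 ± 4.89, SD, n = 3) and at 64.2, 65.8 and 56.9 cpm in NIL-Prl5 (62.3 ± 4.74, SD, n = 3). It stood at 82.1, 81.6 and 74.3 cpm in NIL-Pbl6 (79.3 ± 4.36, SD, n = 3) and at 83.7, 88 and 79.7 cpm in NIL-Prl5+Pbl6 (83.8 ± 4.14, SD, n = 3). The lines fell into a lower pair without and a higher pair with the Pbl6 segment, which did not overlap, and the lines within each pair overlapped.

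The comparison of NIL-Pbl6 with Koshihikari asked what the Pbl6 segment alone does. Os02t0643200 rose 1.38-fold (log2 fold change 0.46, SE 0.092, 95% interval 0.26 to 0.66, edgeR adjusted p = 0.00971). It was the only one of the 6 that passed, where 8.49% of all transcripts passed and 3.07% passed as higher. A count of 1 gene in 6 is too small to set against that background, and it is not read as a result about the family. The call was lost without NIL-Pbl6 replicate 1 (0.44, edgeR adjusted p = 0.0625) and without NIL-Pbl6 replicate 2 (0.44, edgeR adjusted p = 0.0513), with little change in the fold change itself.

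Against NIL-Prl5, in libraries that the first test of the Pbl6 segment did not use, NIL-Prl5+Pbl6 had 1.35-fold more Os02t0643200 (log2 fold change 0.43, SE 0.0956, 95% interval 0.23 to 0.63, edgeR adjusted p = 0.00519). Here 25.3% of all transcripts passed, 13.2% as higher, and 1 gene in 6 is again not read as a result about the family. This call held without each library in turn (0.37 to 0.47). With both segments, the increase over Koshihikari was 1.45-fold (log2 fold change 0.54, SE 0.0943, edgeR adjusted p = 0.0118). It no longer passed without NIL-Prl5+Pbl6 replicate 1 (edgeR adjusted p = 0.0698) or replicate 2 (edgeR adjusted p = 0.089). OsYAB1 and Os02t0643200 were the members that passed with both segments over Koshihikari, 2 of 6. Of all transcripts 2.16% passed there and 0.863% passed as higher. The count of 2 genes in 6 is not read as a result about the family.

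The Prl5 segment gave no call for Os02t0643200, with log2 fold changes of 0.12 (95% interval -0.11 to 0.35) in NIL-Prl5 over Koshihikari and 0.08 (95% interval -0.08 to 0.24) in NIL-Prl5+Pbl6 over NIL-Pbl6. The interaction was -0.03 (95% interval -0.30 to 0.23, edgeR adjusted p = 0.882). Its share of the reads of the 6 YABBY transcripts was 16% to 20.6% in the lines without the Pbl6 segment and 22.3% to 23.3% in the lines with it. Of 17 tested loci among the 10 on each side by locus number, 2 passed in NIL-Pbl6 over Koshihikari and 5 in NIL-Prl5+Pbl6 over NIL-Prl5 by edgeR, in comparisons where 8.49% and 25.3% of all transcripts passed. Their log2 fold changes ran from -1.05 to 0.54 and from -0.18 to 0.82, so the highest exceeded that of Os02t0643200 in both comparisons.

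Os12t0621100, whose description is similar to FILAMENTOUS FLOWER, was highest in NIL-Prl5. Os12t0621100-02 stood at 15.9, 15.8 and 20 cpm in Koshihikari (17.2 ± 2.38, SD, n = 3) and at 26, 20.6 and 23.5 cpm in NIL-Prl5 (23.4 ± 2.72, SD, n = 3). In NIL-Pbl6 it was 21.3, 18.2 and 21.1 cpm (20.2 ± 1.74, SD, n = 3), and in NIL-Prl5+Pbl6 21.3, 22.1 and 18.6 cpm (20.7 ± 1.86, SD, n = 3). NIL-Prl5 lay above Koshihikari without overlap, as 12.7% of all transcripts did, and the remaining pairs of neighbouring lines overlapped.

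The log2 fold change of Os12t0621100 in NIL-Prl5 over Koshihikari was 0.44 (SE 0.132, 95% interval 0.15 to 0.73) and did not pass (edgeR adjusted p = 0.0934). The call turned on the processing, since the same difference passed with DESeq2 (adjusted p = 0.0478), with edgeR's exact test (adjusted p = 0.0392) and with all 12 libraries in one edgeR fit (adjusted p = 0.0316). It also passed without NIL-Prl5 replicate 2 (0.53, edgeR adjusted p = 0.0348) and without both libraries that stood apart (0.47, edgeR adjusted p = 0.00572). These settings also let more of all transcripts pass, 6.38% with DESeq2, 8.15% with the exact test, 11.5% in one fit, 11.3% without NIL-Prl5 replicate 2 and 36.8% without both libraries, against 0.743%. Where Pbl6 was present the Prl5 segment gave 0.03 (95% interval -0.17 to 0.24). The interaction of -0.40 (SE 0.168, 95% interval -0.76 to -0.05, unadjusted P = 0.0289) did not pass after adjustment (edgeR adjusted p = 0.13). The other transcript, Os12t0621100-01, held 95.4% to 98.8% as many counts and gave 0.45 in NIL-Prl5 over Koshihikari.

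Os03t0215200, similar to DROOPING LEAF, differed little between the lines. It stood at 17.6, 18.6 and 19.3 cpm in Koshihikari (18.5 ± 0.857, SD, n = 3) and at 20.3, 23.1 and 21.8 cpm in NIL-Prl5 (21.7 ± 1.4, SD, n = 3). In NIL-Pbl6 it was 23.3, 21.1 and 17.9 cpm (20.7 ± 2.72, SD, n = 3), and in NIL-Prl5+Pbl6 21.2, 25.6 and 19.6 cpm (22.1 ± 3.1, SD, n = 3). Koshihikari lay lowest, without overlap with NIL-Prl5 or NIL-Prl5+Pbl6, and the near-isogenic lines overlapped each other. NIL-Prl5 lay wholly above Koshihikari for 12.7% of all transcripts, and NIL-Prl5+Pbl6 for 10.5%. The log2 fold changes over Koshihikari were 0.24 in NIL-Prl5 (95% interval 0.00 to 0.47, edgeR adjusted p = 0.195), 0.17 in NIL-Pbl6 (95% interval -0.07 to 0.41, edgeR adjusted p = 0.376) and 0.26 in NIL-Prl5+Pbl6 (95% interval 0.00 to 0.51, edgeR adjusted p = 0.361). None passed.

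Os04t0536300, similar to Yabby15, held the largest share of reads among the 6 in every library, from 42% to 54.1%, which is a count share and depends on transcript length. It stood at 147, 152 and 145 cpm in Koshihikari (148 ± 4.13, SD, n = 3), 157, 164 and 149 in NIL-Prl5 (157 ± 7.27), 177, 172 and 162 in NIL-Pbl6 (170 ± 7.41) and 167, 181 and 152 in NIL-Prl5+Pbl6 (167 ± 14.6). The NIL-Pbl6 libraries lay above the Koshihikari libraries without overlap, as 14.9% of all transcripts did, and the near-isogenic lines overlapped each other. The log2 fold change of NIL-Pbl6 over Koshihikari was 0.20 (SE 0.0832, 95% interval 0.02 to 0.38) and did not pass (edgeR adjusted p = 0.152). It passed only without Koshihikari replicate 2 (0.23, edgeR adjusted p = 0.0406). The other differences between lines were between -0.03 and 0.17 on the log2 scale and none passed.

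Os10t0508300, similar to YABBY 3, varied least between the lines. Its values lay between 29.8 and 31.9 cpm in Koshihikari (31.1 ± 1.13, SD, n = 3), between 31.3 and 34.2 cpm in NIL-Prl5 (33.1 ± 1.6), between 30.4 and 31.4 cpm in NIL-Pbl6 (30.9 ± 0.481) and between 29.4 and 34.6 cpm in NIL-Prl5+Pbl6 (32.3 ± 2.65). All lines overlapped Koshihikari. The log2 fold changes were 0.09 in NIL-Prl5 over Koshihikari (95% interval -0.12 to 0.31) and -0.01 in NIL-Pbl6 over Koshihikari (95% interval -0.20 to 0.17).

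**Figure D3:**
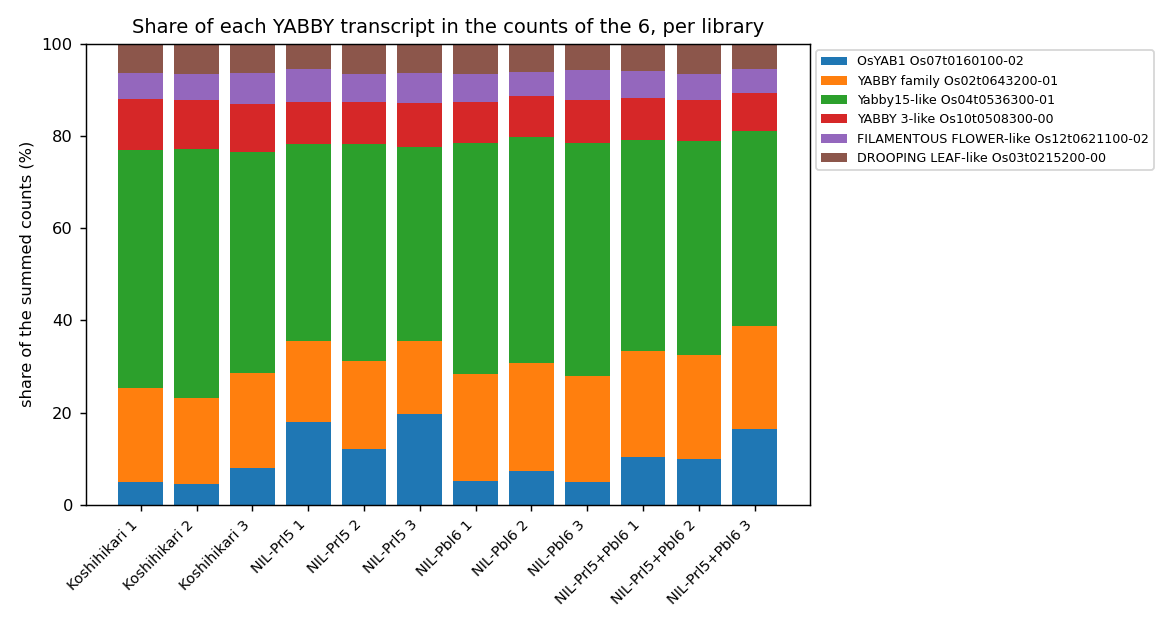
Share of each YABBY transcript in the summed counts of the 6 (y axis, %) in each of the 12 libraries (x axis, line and replicate number). The OsYAB1 share runs from 4.52% to 8.05% without the Prl5 segment and from 9.93% to 19.6% with it, and Os04t0536300 has the largest share in every library.

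Across the 6 genes, the median log2 fold change was 0.18 in NIL-Prl5 over Koshihikari, against -0.01 over all transcripts tested, and 6 of 6 were above 0 there, where 48.4% of all transcripts were. In NIL-Pbl6 over Koshihikari it was 0.22 against 0.00, with 5 of 6 above 0, where 49.4% of all transcripts were. Both comparisons share the Koshihikari libraries. With NIL-Pbl6 as the control, the Prl5 segment gave a median of 0.07 against 0.01, with 5 of 6 above 0, against 51.4%. With NIL-Prl5 as the control, the Pbl6 segment gave a median of 0.00 against 0.00, with 3 of 6 above 0, against 50.5%. For the interaction, 0 of 6 passed with edgeR, where 3.93% of all transcripts passed, and 0 of 6 with DESeq2, where 11.5% did. All 6 interaction values were below 0 with edgeR, where 52.2% of all transcripts were above 0. With scaling to total counts, 3 of the 6 were above 0.

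Counts by looser criteria were read against the same background. The libraries of NIL-Prl5 lay wholly above those of Koshihikari for 3 of the 6 (OsYAB1, Os12t0621100 and Os03t0215200), where 12.7% of all transcripts did. Those of NIL-Pbl6 lay wholly above Koshihikari for 2 (Os02t0643200 and Os04t0536300), where 14.9% did, and those of NIL-Prl5+Pbl6 for 3 (OsYAB1, Os02t0643200 and Os03t0215200), where 10.5% did. NIL-Prl5+Pbl6 lay wholly above NIL-Pbl6 for OsYAB1, where 9.82% did, and wholly above NIL-Prl5 for Os02t0643200, where 21.3% did. None of the 6 lay wholly below in any comparison. The share of all transcripts that did is not given here, so that count is not read as a result about the family. At an unadjusted edgeR P below 0.05, the members numbered 3 in NIL-Prl5 over Koshihikari, against 25% of all transcripts, 2 in NIL-Pbl6 over Koshihikari, against 25.3%, and 3 with both segments, against 13.8%. They numbered 1 in NIL-Prl5+Pbl6 over NIL-Pbl6, against 15.9%, 2 in NIL-Prl5+Pbl6 over NIL-Prl5, against 37.9%, and 1 (Os12t0621100) for the interaction, against 28.9%.

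**Figure D4:**
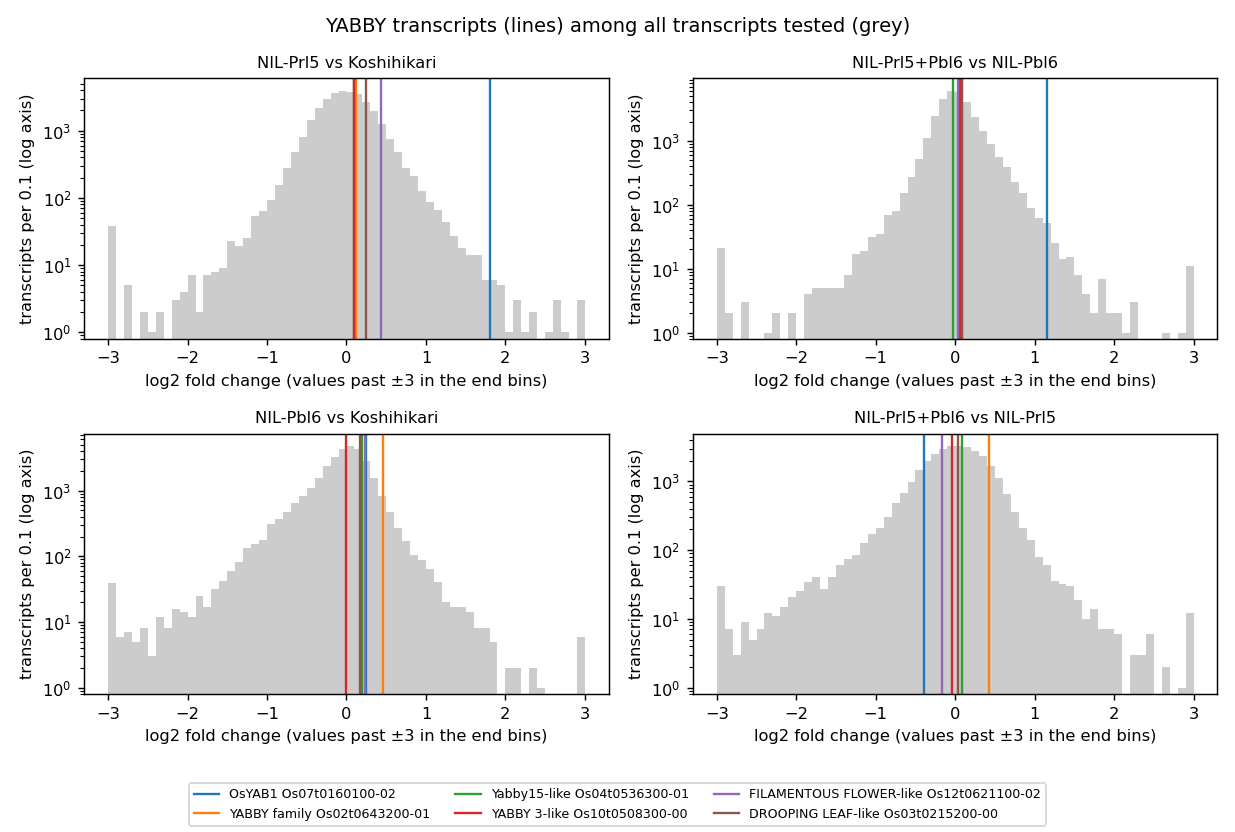
Number of transcripts (y axis, log axis) by log2 fold change (x axis, in steps of 0.1, with values past the ends of the axis in the end bins) for the Prl5 segment (upper panels) and the Pbl6 segment (lower panels), with the 6 YABBY transcripts as coloured lines. OsYAB1 lies in the right tail in both upper panels (1.80 and 1.16), while the other 5 lie between -0.03 and 0.44 there.

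Over the 12 libraries the YABBY genes followed different courses, which is given as a description, since the libraries share lines and normalization. The highest Pearson correlation of log2 cpm between members was 0.79, between Os02t0643200 and Os04t0536300. OsYAB1 correlated at 0.68 with Os12t0621100, at 0.17 with Os02t0643200 and at 0.00 with Os04t0536300.

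Another 2 loci outside the member list had YABBY in their description. Os03t0650000-01, similar to Yabby9, stood at 17.5 ± 0.924 cpm in Koshihikari, 19.8 ± 0.842 in NIL-Prl5, 18.9 ± 0.514 in NIL-Pbl6 and 20.4 ± 1.01 in NIL-Prl5+Pbl6 (SD, n = 3 each), and passed in no comparison. Os07t0571800-01, similar to YABBY 7, had 0 to 3 counts per library, 18 in all, and was not tested.

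Among all other transcripts tested, the one closest in pattern to OsYAB1 was Os08t0531700-01, described as similar to MADS-box transcription factor 7, a floral organ identity gene (Pearson r = 0.936 over 12 libraries, log2 cpm). Its level was 40.7 ± 11.7 cpm in Koshihikari, 70.2 ± 11.3 in NIL-Prl5, 43.5 ± 5.96 in NIL-Pbl6 and 61.9 ± 5.33 in NIL-Prl5+Pbl6 (SD, n = 3 each). Next came Os03t0766500-01, similar to the cytokinin response regulator ARR1 (r = 0.924), at a mean of only 1.04 cpm. For Os02t0643200 the closest were Os05t0562350-00, a hypothetical gene (r = 0.974), and Os05t0562300-01, similar to a DnaJ-like protein (r = 0.968). Their locus numbers are neighbours and shared reads could not be separated, so they are not taken as independent matches. The DnaJ-like transcript stood at 8.53 ± 0.462 cpm in Koshihikari, 10.1 ± 1.92 in NIL-Prl5, 20.9 ± 1.51 in NIL-Pbl6 and 20.1 ± 2.36 in NIL-Prl5+Pbl6. Like Os02t0643200, both lay higher in each line with the Pbl6 segment.

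The closest to the remaining members were Os04t0527800-01, a mitochondrial substrate carrier (r = 0.966), and Os02t0232900-01, similar to the membrane channel protein NIP1-1 of maize (r = 0.952), for Os04t0536300. For Os12t0621100 they were Os04t0531700-01, a short-chain dehydrogenase/reductase (r = 0.914), and Os04t0168100-00, a hypothetical gene (r = 0.902). For Os10t0508300 they were Os01t0787400-01 (r = 0.945), a conserved hypothetical protein, and Os01t0672400-03 (r = 0.898), of the Drought induced 19 family. For Os03t0215200 they were Os02t0574600-01 and Os02t0165500-01 (r = 0.923 each), neither with a described function.

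**Figure D5:**
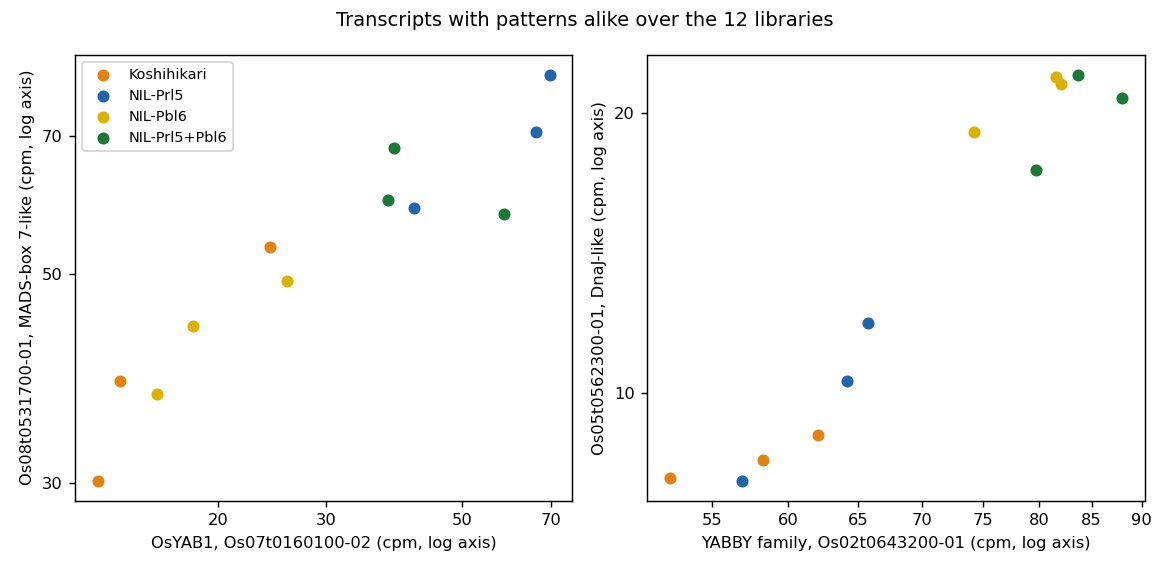
Level of OsYAB1 against the MADS-box 7-like transcript Os08t0531700-01 (left) and of Os02t0643200 against the DnaJ-like transcript Os05t0562300-01 (right), in cpm on log axes. Each point is a library, coloured by line, and r over the 12 libraries is 0.936 on the left and 0.968 on the right. The points separate by presence of the Prl5 segment on the left and of the Pbl6 segment on the right, and lines alike in that segment overlap.

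Genes that work beside the YABBY proteins were taken as a list of 18 loci, which covers organ polarity, floral whorls, sterile lemmas, the shoot meristem and gibberellin, and 17 of them were tested. In NIL-Prl5 over Koshihikari, 1 rose and 0 fell (edgeR), where 0.743% of all transcripts passed and 0.382% passed as higher. This was Os06t0712700, SPW1, the rice B-class MADS-box gene for lodicules and stamens, which keeps DROOPING LEAF out of these whorls. SPW1 stood at 39 ± 4.83 cpm in Koshihikari and 65.4 ± 11.4 in NIL-Prl5 (SD, n = 3; log2 fold change 0.75, edgeR adjusted p = 0.0364), and edgeR adjusted p-values without each library in turn ran from 0.00795 to 0.188. The call was lost without Koshihikari replicate 1 (0.188) or 3 (0.0528) and without NIL-Prl5 replicate 1 (0.153) or 3 (0.156), and with the replicate number as a block (0.0804). In NIL-Prl5+Pbl6 over NIL-Pbl6 0 of 17 passed, where 0.777% of all transcripts did.

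In NIL-Pbl6 over Koshihikari, 2 of the 17 rose and 0 fell, where 8.49% of all transcripts passed and 3.07% passed as higher. These were Os09t0395300, a myb-like SHAQKYF-class gene (log2 fold change 0.65, edgeR adjusted p = 0.0322), and Os12t0612700, similar to ATHB-14, an HD-Zip gene that promotes the adaxial side of organs in Arabidopsis (0.40, edgeR adjusted p = 0.0322). Each lost its call without Koshihikari replicate 1 and without each NIL-Pbl6 library in turn (edgeR adjusted p up to 0.175 and 0.142), and with scaling to total counts (0.0543 and 0.0817), and Os12t0612700 also with the replicate number as a block (0.111). Os12t0612700 was also the only one that passed with both segments over Koshihikari (0.50, edgeR adjusted p = 0.0258), a call lost without Koshihikari replicate 1 and without each NIL-Prl5+Pbl6 library in turn (up to 0.127).

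In NIL-Prl5+Pbl6 over NIL-Prl5, 5 rose and 1 fell, 6 of 17, where 25.3% of all transcripts passed. The 5 were the HD-Zip genes Os12t0612700 (0.49), Os03t0640800 (0.54) and Os10t0480200, similar to Rolled leaf1, an adaxial gene of maize (0.56), with Os03t0109400, a homeodomain-related gene (0.37, lost without NIL-Prl5 replicate 1 or 3 or NIL-Prl5+Pbl6 replicate 3, edgeR adjusted p up to 0.0903), and Os05t0563400, similar to Auxin response factor 5 (0.60). Os07t0139300, similar to G1, a gene for the sterile lemma, fell by 0.69 on the log2 scale (edgeR adjusted p = 0.0013). It was also the only one of the 17 that passed for the interaction (-0.86, edgeR adjusted p = 0.0461), a call that held in 3 of the 12 fits without a library, those without Koshihikari replicate 2, NIL-Prl5 replicate 2 or NIL-Prl5+Pbl6 replicate 2 (edgeR adjusted p from 0.00345 to 0.132 over the 12). It did not pass with the replicate number as a block (-0.87, edgeR adjusted p = 0.0599). The loci Os01t0177400 and Os03t0707600, included for the gibberellin pathway, did not pass in NIL-Prl5 over Koshihikari, with log2 fold changes of 0.28 (SE 0.302) and -0.15 (SE 0.115).

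Markers of other stages and tissues moved with the lines. The summed level of 12 floral organ MADS-box genes was 752.9 to 792.5 cpm in Koshihikari, 846.9 to 911.8 in NIL-Prl5, 807.2 to 864.1 in NIL-Pbl6 and 797.6 to 880 in NIL-Prl5+Pbl6, with none of the 12 at 0. In NIL-Prl5 over Koshihikari, where 48.4% of all transcripts were above 0 and 0.743% passed, 10 of the 12 were above 0, 2 rose (edgeR), SPW1 and the PISTILLATA-like Os05t0423400 (0.92, adjusted p = 0.0267), and 0 fell. Os05t0423400 is on the chromosome of Prl5 and close to it by locus number, and whether it lies within the ST-1 segment was not tested. Its call was lost without Koshihikari replicate 1 or without NIL-Prl5 replicate 1 or 3 (edgeR adjusted p up to 0.156). In NIL-Prl5+Pbl6 over NIL-Pbl6, where 0.777% of all transcripts passed, 3 of the 12 rose, and in a fit of all 12 libraries these 3 had edgeR adjusted p-values of 0.163 (Os05t0423400), 0.287 (Os08t0531700) and 0.19 (Os09t0507200). For the Prl5 segment without and with Pbl6, 10 and 9 of the 12 were above 0, where 48.4% and 51.4% of all transcripts were. The sums of NIL-Prl5+Pbl6 overlapped those of NIL-Pbl6, and the sums of NIL-Pbl6 lay above those of Koshihikari. The part of panicle stage in the OsYAB1 increase was not tested.

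The summed level of 11 meristem and branching genes was 555.4 to 651.9 cpm in Koshihikari, 459.2 to 629.4 in NIL-Prl5, 730.6 to 783.1 in NIL-Pbl6 and 609.4 to 658.8 in NIL-Prl5+Pbl6. The sums of NIL-Pbl6 lay above those of the other lines. In NIL-Prl5+Pbl6 over NIL-Prl5, where 25.3% of all transcripts passed, 7 of the 10 tested were above 0 and 1 rose. This was Os07t0129700, the homeobox gene OSH15 (0.53, edgeR adjusted p = 0.00929). In NIL-Pbl6 over Koshihikari, where 8.49% passed, 7 were above 0 and 2 rose, OSH15 and Os04t0598300. In NIL-Prl5 over Koshihikari, where 0.743% passed, 2 were above 0 and 0 passed. In NIL-Prl5+Pbl6 over NIL-Pbl6, where 0.777% passed, 1 was above 0 and Os01t0831000 fell (-0.67). In a fit of all 12 libraries Os01t0831000 did not pass (edgeR adjusted p = 0.162). Calls outside the first comparison were lost without some single libraries. Leaf photosynthesis transcripts, 83 by their descriptions, summed to 320.3 to 432 cpm in Koshihikari, 402.1 to 499.3 in NIL-Prl5, 285 to 311.7 in NIL-Pbl6 and 302.1 to 338.9 in NIL-Prl5+Pbl6. The sums of NIL-Prl5 overlapped those of Koshihikari. Those of NIL-Pbl6 lay below those of Koshihikari, and those of NIL-Prl5+Pbl6 below those of NIL-Prl5. Of the 70 tested, 1 rose and 14 fell in NIL-Pbl6 over Koshihikari, where 8.49% of all transcripts passed. In NIL-Prl5+Pbl6 over NIL-Prl5, 2 rose and 29 fell, where 25.3% passed. In each comparison of the Prl5 segment 1 rose and 0 fell, where 0.743% and 0.777% passed. The part of either list in the YABBY results was not tested.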

How the data were processed

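RNA from 2-mm stage young panicles was sequenced by the study with standard Illumina libraries. The authors deposited raw read counts per Rice Annotation Project transcript. Per the labels, bcl2fastq, Bowtie and the IRGSP 1.0 build were used. The counter, strand and treatment of multiply matching reads are not given in the sources used here, so reads shared between paralogs or antisense genes could not be separated.

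Counts were analysed with edgeR 4.0.16 in R 4.3.3: TMM, filterByExpr over 12 libraries (count minimum 10), glmQLFit and glmQLFTest on the 6 libraries of a pair or, for the interaction, on all 12, two-sided, with Benjamini-Hochberg adjustment over 31643 transcripts and a prior count of 0.125. An adjusted p below 0.05 is called passed. The tests were tested on simulated data. Members are named by the transcript with the highest mean cpm; listed genes are named where they passed, and patterns alike by the 2 highest Pearson correlations per member. Alternatives included DESeq2 1.42.0, other scalings, no filter, the exact test, one fit, loci, a replicate block and each library left out. Members and lists were chosen with earlier results of these data known.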

Additional observations from a re-analysis of the deposited data

How the results depend on the processing

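Of the 6 YABBY genes, 1 passed in NIL-Prl5 over Koshihikari; the number was 2 with DESeq2, with edgeR's exact test, with all 12 libraries in one fit and without Koshihikari replicate 2 and NIL-Prl5 replicate 2 together (an alternative chosen after seeing the data), 3 at an unadjusted P below 0.05, and 1 to 2 with a library left out. Over all transcripts 6.38%, 8.15%, 11.5% and 36.8% passed in the first 4 of these, against 0.743%. At the unadjusted P 25% passed, and with a library left out 0.199% to 20.8%. The further gene was Os12t0621100 in each case, joined by Os03t0215200 at the unadjusted P. For the other comparisons the share of all transcripts that passed is in brackets. In NIL-Pbl6 over Koshihikari 1 passed (8.49%), 2 did at an unadjusted P (25.3%), and 0 to 2 with a library left out (3.37% to 23.2%). With both segments over Koshihikari 2 passed (2.16%), and 1 to 2 with a library left out (0.853% to 2.65%). In NIL-Prl5+Pbl6 over NIL-Pbl6 1 passed (0.777%), and 0 in the fit of all 12 (0.329%). In NIL-Prl5+Pbl6 over NIL-Prl5 1 passed (25.3%), and 2 did without a filter (20.8%) and at an unadjusted P (37.9%). With a library left out, 1 to 2 passed there (12.3% to 35.3%). For the interaction 0 passed (3.93%) and 1 did at an unadjusted P (28.9%). These counts are not read as results about the family.

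With the replicate number as a block, 2 of 6 passed in NIL-Prl5+Pbl6 over NIL-Prl5, where 27.4% of all transcripts did. OsYAB1 differed there by -0.38 (edgeR adjusted p = 0.0244), and no other YABBY call was changed by the block. Among listed genes it lost the calls of SPW1 in NIL-Prl5 over Koshihikari, of Os12t0612700, Os04t0598300 and Os07t0129700 in NIL-Pbl6 over Koshihikari, and of Os07t0139300 in the interaction. Same-numbered libraries had correlations of their deviations from the line means between -0.32 and 0.37, so the numbers were not taken as pairs. Over all transcripts the block moved the number that passed from 235 to 69 in NIL-Prl5 over Koshihikari, from 2686 to 1750 in NIL-Pbl6 over Koshihikari, from 685 to 1292 with both segments and from 1243 to 142 for the interaction.

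The numbers over all transcripts depended on single libraries: leaving out one gave 63 (without Koshihikari replicate 1) to 6574 (without Koshihikari replicate 2) in NIL-Prl5 over Koshihikari, 1067 to 7326 in NIL-Pbl6 over Koshihikari and 7 to 7579 for the interaction. DESeq2 gave 2018 in NIL-Prl5 over Koshihikari and 3644 for the interaction. The cause was not tested.

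With scaling to total counts, small differences that had not passed changed sign: Os04t0536300 in NIL-Prl5+Pbl6 over NIL-Pbl6 (0.02), Os10t0508300 in NIL-Prl5+Pbl6 over NIL-Prl5 (0.02), and, for the interaction, Os10t0508300 (0.11), Os02t0643200 (0.10), Os04t0536300 (0.02) and Os03t0650000 (0.07). The interaction of Os02t0643200 was 0.07 without Koshihikari replicate 2 and NIL-Prl5 replicate 2 together.

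With a library left out, differences that had not passed ranged across 0 for Os10t0508300 (-0.04 to 0.00 in NIL-Pbl6 over Koshihikari, 0.00 to 0.11 with both segments, -0.10 to 0.02 in NIL-Prl5+Pbl6 over NIL-Prl5, -0.08 to 0.03 for the interaction), for Os04t0536300 (-0.10 to 0.03), Os12t0621100 (-0.04 to 0.10) and Os03t0215200 (-0.04 to 0.18) in NIL-Prl5+Pbl6 over NIL-Pbl6, for Os03t0215200 (-0.11 to 0.10) and Os03t0650000 (0.00 to 0.07) in NIL-Prl5+Pbl6 over NIL-Prl5, and for Os02t0643200 (-0.10 to 0.03) in the interaction. No YABBY difference that had passed changed direction under any alternative run. With 3 libraries per line, intervals of the members' log2 fold changes were wide enough to include small changes in the genes that did not pass.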
